A study of Mus musculus with 62 samples.

Results

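The 10 genes described here encode chaperones of the cytosol in mouse. They are the Hsp90 genes Hsp90aa1 and Hsp90ab1, the Hsp70 genes Hspa8, Hspa1a and Hspa1b, the Hsp110 genes Hspa4 and Hsph1, the Hsp40 genes Dnajb1 and Dnaja1, and Hspb1, which encodes a small heat shock protein and belongs to none of the other families. They were taken by gene name from the 53975 gene identifiers of the deposited gene tables, and all 10 were present in every table. The study measured RNA in the hippocampus of mice and in HT-22 cells, a mouse hippocampal cell line. One set of mice carried the APP NL-G-F knock-in, a humanised amyloid precursor protein gene with familial Alzheimer's disease mutations, and the other set were C57BL/6J mice (WT). Left and right hippocampi of each mouse were pooled. Ages were 3, 6 and 12 months, with 3 mice per age and genotype except for WT at 3 months, which has 2. HT-22 cells were first treated for 24 h with a locked nucleic acid (LNA), either anti-Hsf1 (150 nM), which targets the Hsf1 transcript, or scramble (50 uM as the labels have it), and then amyloid beta 1-42 or the reverse 42-1 peptide, both at 30 uM in DMSO. Each peptide was measured in 4 libraries with scramble LNA and 3 with anti-Hsf1 LNA, labelled as biological replicates. All 4 HT-22 groups therefore received a peptide and an LNA, and no untreated cells are among them.

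Cytosolic chaperones hold unfolded or partly folded proteins and pass them between one another. Hsp40 proteins bring substrates to Hsp70 and stimulate its ATPase, Hsp110 proteins release the nucleotide from Hsp70, and Hsp90 takes substrates on from Hsp70 to finish folding. Hsf1 is the transcription factor that binds inverted nGAAn repeats, called heat shock elements, and induces the stress-inducible members (Hspa1a, Hspa1b, Hsph1, Hspb1, Dnajb1 and Hsp90aa1) under proteotoxic stress, whereas Hspa8 and Hsp90ab1 are the constitutive forms of their families. Hspa8, Dnajb1 and an Hsp110 protein together can take apart protein aggregates.

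Sequences upstream of the start sites are shown for 3 of the members in which a pair of inverted heat shock units stood, and for Dnajb1, the member with the only change that passed a test. They come from the RefSeq promoter table of GRCm38.p6, in which 7 of the 10 members were found. Each is the 250 bases before the first start site listed, 5′ to 3′ on the gene's strand, in lower case with every match to GAANNTTC in capitals.
Hspa1a, chr17:34972157-34972406, minus strand: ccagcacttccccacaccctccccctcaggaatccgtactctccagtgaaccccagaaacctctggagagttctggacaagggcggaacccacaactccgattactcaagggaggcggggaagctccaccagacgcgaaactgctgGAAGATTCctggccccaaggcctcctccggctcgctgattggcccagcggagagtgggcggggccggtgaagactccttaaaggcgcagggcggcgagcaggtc
Hspa1b, chr17:34959239-34959488, minus strand: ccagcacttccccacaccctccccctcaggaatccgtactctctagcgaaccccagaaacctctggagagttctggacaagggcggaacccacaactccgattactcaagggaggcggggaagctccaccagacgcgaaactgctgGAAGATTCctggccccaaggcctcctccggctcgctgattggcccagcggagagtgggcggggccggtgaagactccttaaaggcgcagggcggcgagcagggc
Hspb1, chr5:135887669-135887918, plus strand: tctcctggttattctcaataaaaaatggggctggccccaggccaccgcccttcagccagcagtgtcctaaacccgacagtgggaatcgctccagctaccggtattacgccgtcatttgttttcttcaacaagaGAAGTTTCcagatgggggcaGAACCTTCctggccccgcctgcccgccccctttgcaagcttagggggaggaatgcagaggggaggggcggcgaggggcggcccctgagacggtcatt
Dnajb1, chr8:83607925-83608174, plus strand: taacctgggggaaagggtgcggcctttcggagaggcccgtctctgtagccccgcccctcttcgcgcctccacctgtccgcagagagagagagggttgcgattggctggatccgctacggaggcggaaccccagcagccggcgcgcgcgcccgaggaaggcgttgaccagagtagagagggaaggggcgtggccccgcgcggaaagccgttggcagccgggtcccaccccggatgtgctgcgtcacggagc
Hspa1a and Hspa1b each held 1 match, GAAGATTC, at bases -104 to -97 from the start, and their 250 bases differed at 3 positions. Hspb1 held 2, GAAGTTTC at -117 to -110 and GAACCTTC at -97 to -90. Dnaja1 also held 1, GAAAATTC at -124 to -117. In all, 4 of the 7 members had a match to GAANNTTC, a pattern that reads the same on both strands, against 7.73% of the 27025 genes in the table. The other arrangement, TTCNNGAA, also the same on both strands, stood in 1 of the 7, Hsph1, as TTCTCGAA at -33 to -26, against 8.11% of genes. A run of 3 units, GAANNTTC followed by NNGAA, searched on both strands and containing both patterns, stood in 0 of the 7 and in 0.514% of genes. Dnajb1 had no match to any of these letters in its windows. The matches describe these letters in these windows and were not compared with any binding data.

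The members lie on 7 chromosomes of mm10, all as protein-coding genes. Hspa1a (ENSMUSG00000091971, chr17:34969190-34972156, minus strand) and Hspa1b (ENSMUSG00000090877, chr17:34956436-34959238, minus strand) are neighbours. Their coding sequences differed at 8 of 1923 aligned bases, so how the authors' quantification split reads between them is uncertain, and their sum is the safer value. Other pairs are less alike: coding identity was 76.2% between Hsp90aa1 (ENSMUSG00000021270, chr12:110690605-110702728, minus strand) and Hsp90ab1 (ENSMUSG00000023944, chr17:45567775-45573271, minus strand). It was 74.5% between Hspa1a and Hspa8 (ENSMUSG00000015656, chr9:40800984-40810087, plus strand), and 64.9% between Hspa4 (ENSMUSG00000020361, chr11:53259814-53300457, minus strand) and Hsph1 (ENSMUSG00000029657, chr5:149614287-149636376, minus strand). It was 54.6% between Dnajb1 (ENSMUSG00000005483, chr8:83608193-83612653, plus strand) and Dnaja1 (ENSMUSG00000028410, chr4:40722150-40737149, plus strand). Hspb1 (ENSMUSG00000004951, chr5:135887919-135889563, plus strand) is the shortest member. Gm20481 covers 2225 bases of Hspa1a on the opposite strand and Smu1 608 bases of Dnaja1, and the Hspa8 introns hold Snord14c, Snord14d and Snord14e. No source used here says whether the counting used strand, so reads in these overlaps could belong to either gene.

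Values are TPM, which are corrected for transcript length and so can be compared between genes, divided here by a median of ratios size factor within each system (scaled TPM). The depth is unknown, but the step between coverage and FPKM gave relative depths from 0.724 to 2.60 in HT-22 and from 1.42 to 3.04 in mouse libraries. Protein-coding genes held 30.1 to 42.1% of TPM in the amyloid beta, anti-Hsf1 libraries and 48.1 to 61.8% in the other HT-22 libraries, and 26.6 to 28.5% in WT and 36.2 to 51.0% in APP mice at 6 months. Neuron markers were present in the mouse libraries (8 of 8, summed scaled TPM 1639.7 to 2275), but in HT-22 cells 1 of 8 had a mean of at least 1, and Rbfox3, Snap25, Syt1 and Gad1 were listed at 0 throughout. Among the mice, Xist was high in every APP library and in WT at 3 months, and the Y-linked Ddx3y, Uty, Eif2s3y and Kdm5d were high in WT at 6 and 12 months. Genotype at 6 and 12 months, age in WT and the genotype by age interaction therefore cannot be told apart from this difference. In bulk tissue, fewer cells of a type and less RNA per cell cannot be told apart either.

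The constitutive chaperones made up most of the group's RNA in both systems. In HT-22 cells the level of Hsp90ab1 was the highest, with a median of 1056 scaled TPM over 14 libraries (lowest 897, highest 1311). Hspa8 followed at 771 (709 to 912), and Hsp90aa1, the stress-inducible Hsp90, at 299.6 (229.9 to 341). Then came Hspa4 at 118, Hsph1 at 101, Dnaja1 at 64.6, Dnajb1 at 45.4, Hspa1b at 25.2 and Hspa1a at 9.61. Hspb1 was the lowest, with a median of 0.650 and 4 of 14 libraries listed at 0. Hspa8 and Hsp90aa1, Hsp90aa1 and Hspa4, and Dnajb1 and Hspa1b had ranges that did not overlap in any of the 4 groups. Neighbouring ranges overlapped in 1 of 4 groups for Hsp90ab1 and Hspa8, in 1 for Hspa4 and Hsph1, in 2 for Hsph1 and Dnaja1, in 3 for Dnaja1 and Dnajb1, and in 1 for Hspa1b and Hspa1a.

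In the hippocampus Hsp90ab1 (median 491, 413 to 606) and Hspa8 (489, 394 to 638) were level, with Hsp90ab1 the higher of the pair in 8 of 17 libraries. Hsp90aa1 followed at 230.2 (193 to 334). Hsph1 came next at 91.5, above Hspa4 at 71.1 and Dnaja1 at 60.8, and the ranges of Hspa4 and Dnaja1 overlapped in 4 of 6 groups. Dnajb1 was at 13.4, Hspa1b at 4.85, Hspa1a at 4.53 and Hspb1 at 2.21, with Hspa1b and Hspa1a overlapping in 5 of 6 groups. Summed over the members, the level was 2225 to 2867 scaled TPM in HT-22 and 1209.6 to 1712 in mouse libraries, scales that were set separately. As shares of the summed member TPM, which need no scaling, Hsp90ab1 held a median of 42.4% in HT-22 cells and 33.3% in hippocampus, Hsp90aa1 11.2% and 16.3%, Hsph1 4.15% and 6.12%, Dnajb1 1.86% and 0.959%, and Hspa1b 1.07% and 0.355%. The systems differ in every step from cells to library, and these shares were not tested against each other.

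**Figure D1:**
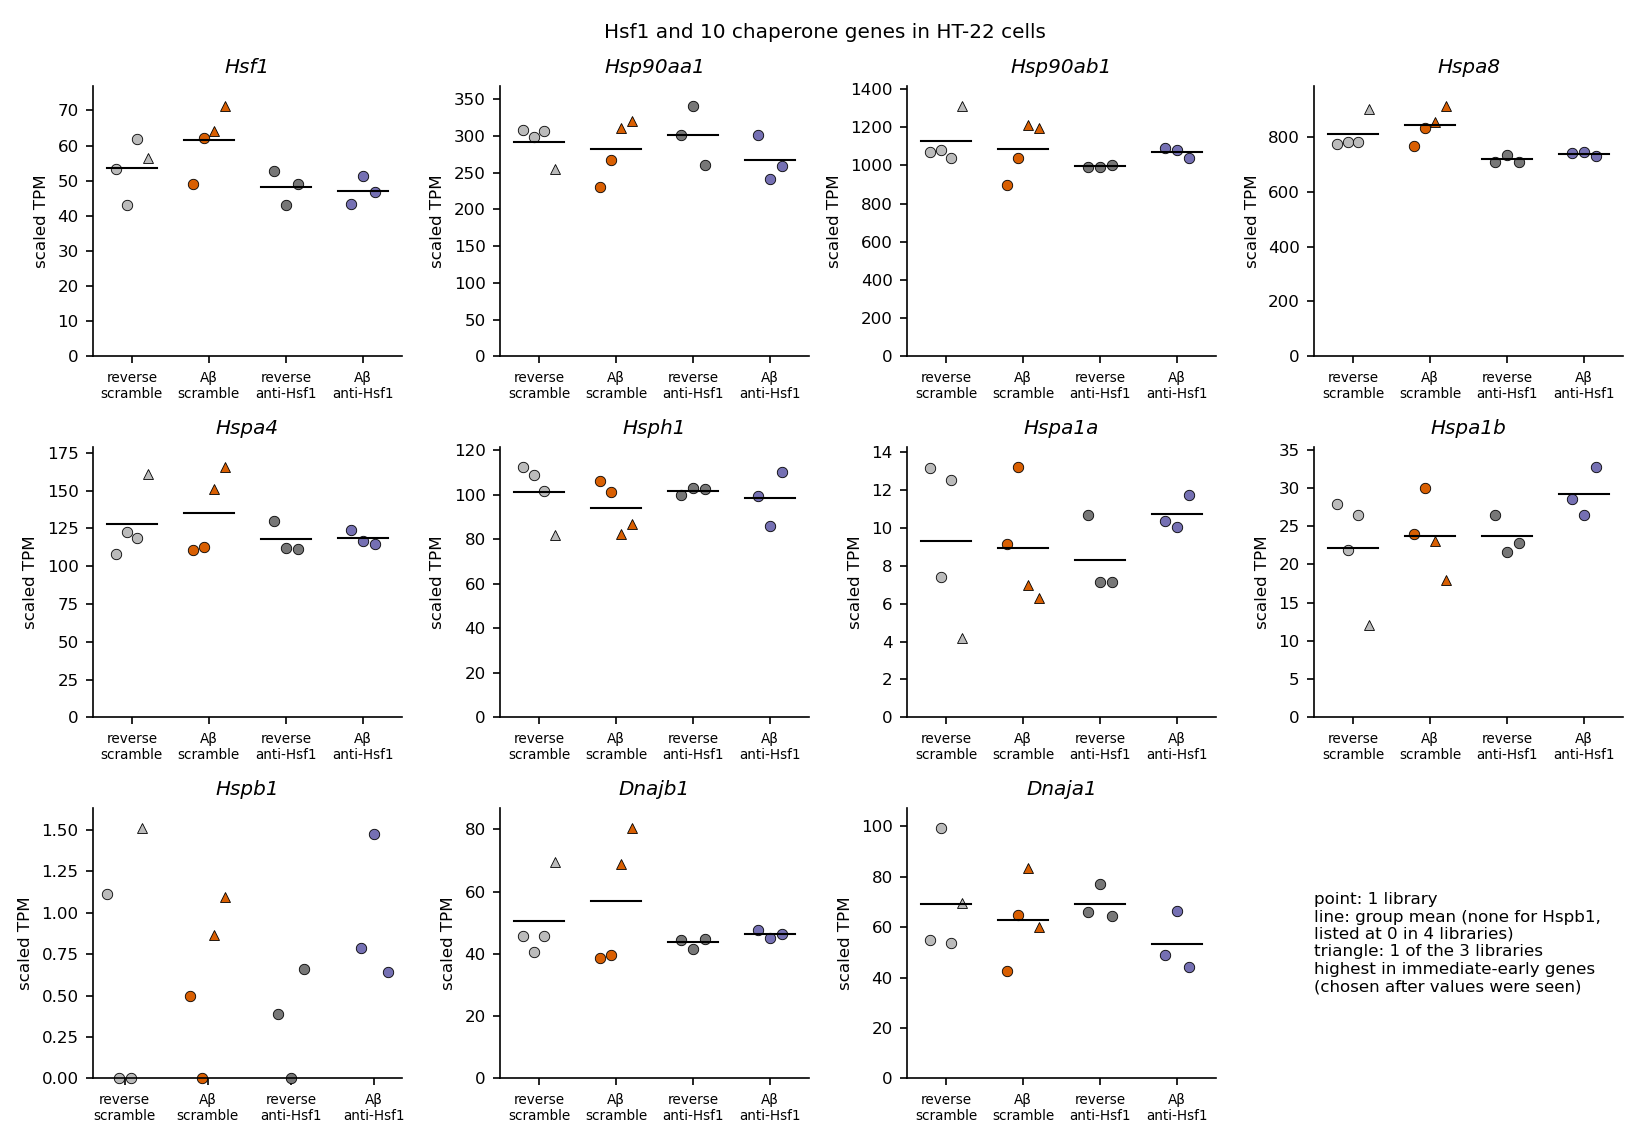
Scaled TPM of the 10 members in the 14 HT-22 libraries, a panel per gene, with points for libraries by peptide and LNA and a line at each group mean (none for Hspb1, listed at 0 in 4 libraries). Hspa8 is the member in which every library labelled anti-Hsf1 (709 to 744) lies below every scramble library given the same peptide (767 to 912). Neither Hspa8 difference passed the test, and the share of all genes split this way was not counted.

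Hsf1 (ENSMUSG00000022556, chr15:76477422-76501913, plus strand), the gene the LNA targets, was measured first. With amyloid beta its scaled TPM was 43.3, 51.4 and 46.7 in the libraries labelled anti-Hsf1 and 49.0, 62.0, 64.2 and 71.3 in the scramble libraries. With the reverse peptide it was 52.6, 43.1 and 49.0 against 53.4, 43.1, 61.9 and 56.6. The ranges overlapped for both peptides. The log2 difference on log2(scaled TPM + 1) was -0.37 (95% interval -0.68 to -0.06) with amyloid beta and -0.15 (-0.46 to 0.16) with the reverse peptide. Neither passed limma's test with Benjamini-Hochberg adjustment over all 17224 genes tested (adjusted p = 0.520 and 0.959). With array weights the amyloid beta value was -0.44 (adjusted p = 0.0431), and with TPM as deposited -1.07 (adjusted p = 0.00113), where 50.7% of all genes were called, nearly all lower (8740 of 8766), with a median of -0.62. The difference in the target thus passed under some settings only, and every direction given here is between libraries as labelled.

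No member passed the test in any of the 5 HT-22 comparisons. Hspb1 was below the filter (mean scaled TPM of at least 1), which left 9 members tested. Of these, 0 had an adjusted p below 0.05 and 0 an unadjusted p below 0.05. Between amyloid beta and reverse peptide the share of all genes that passed was 0% with scramble LNA (866 of 17224 at an unadjusted p below 0.05) and 0% with anti-Hsf1 LNA (790). Between anti-Hsf1 and scramble LNA it was 0% with the reverse peptide (621) and 0.0232% with amyloid beta (4 genes, all higher, and 1554 unadjusted), and it was 0% for the interaction of peptide and LNA (892). The members' median log2 differences in these comparisons were 0.00, 0.04, -0.06, -0.07 and -0.01, beside medians over all genes between -0.02 and 0.00. These counts do not show that the groups were alike, and the intervals below give the differences the data allow.

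Among the Hsp70 genes, Hspa8, which folds and carries proteins in unstressed cells, was 741, 744 and 729 scaled TPM in the libraries labelled anti-Hsf1 with amyloid beta and 767, 831, 856 and 912 in the scramble libraries. The reverse peptide groups had 709, 734 and 709 against 775, 781, 781 and 901. The LNA groups did not overlap for either peptide, and the share of all genes without overlap was not counted. The log2 difference was -0.19 (95% interval -0.41 to 0.03; unadjusted p = 0.0921) and -0.17 (-0.39 to 0.05; unadjusted p = 0.118) and did not pass the limma test. Hspa1b, a stress-inducible Hsp70, was 28.5, 26.4 and 32.7 with amyloid beta and anti-Hsf1, and 23.9, 29.9, 23.1 and 17.9 with scramble. Its values with the reverse peptide were 26.5, 21.7 and 22.8 and 27.8, 21.9, 26.4 and 12.1. Its groups overlapped in both. Hspa1a, the near-identical copy, was 10.4, 10.1 and 11.8 and 9.15, 13.2, 7.01 and 6.31 with amyloid beta, and 10.7, 7.17 and 7.16 and 13.2, 7.38, 12.5 and 4.20 with the reverse peptide. Hspa1a overlapped between all groups compared, and its interval for amyloid beta against reverse peptide with scramble LNA, -0.64 to 0.65, was the widest of the 9 members in that comparison.

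Of the Hsp110 genes, Hspa4 was 124, 117 and 114 with amyloid beta and anti-Hsf1 and 111, 113, 151 and 166 with scramble. Given the reverse peptide, Hspa4 was 129.9, 112 and 111 and 108, 123, 119 and 161. Hsph1, its stress-inducible relative, was 99.3, 86.2 and 110.3 and 106, 101, 82.2 and 86.8 with amyloid beta. The reverse peptide libraries had Hsph1 at 99.9, 103 and 102 and 112, 109, 102 and 82.0. Both genes overlapped between all groups compared. With scramble LNA the intervals for amyloid beta against reverse peptide were -0.25 to 0.40 for Hspa4 and -0.37 to 0.16 for Hsph1.

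Hsp90 finishes the folding of kinases and steroid receptors. Hsp90aa1, its inducible form, was 301, 241 and 259 with amyloid beta and anti-Hsf1 and 229.9, 268, 310.4 and 320.0 with scramble. With the reverse peptide it was 301, 341 and 260.4 and 308, 298, 307 and 255. Hsp90ab1 was 1089, 1079 and 1036 and 897, 1040.4, 1210.2 and 1197 with amyloid beta. With the reverse peptide Hsp90ab1 was 989, 992 and 1002 and 1072, 1082, 1039 and 1311, so the libraries labelled anti-Hsf1 lay below scramble there (log2 difference -0.17, 95% interval -0.45 to 0.11) and below those given amyloid beta with the same LNA (0.10, -0.20 to 0.40). Neither difference passed the test.

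The Hsp40 genes pass substrates to Hsp70. Dnajb1, the stress-inducible one, was 47.5, 45.0 and 46.3 with amyloid beta and anti-Hsf1 and 38.7, 39.8, 68.8 and 80.4 with scramble. Its reverse peptide values were 44.4, 41.7 and 44.8 and 45.9, 40.7, 45.7 and 69.4. The libraries labelled anti-Hsf1 given amyloid beta lay just above those given the reverse peptide, by 0.08 (95% interval -0.47 to 0.63), and the scramble groups each held libraries far above the others. Dnaja1, a farnesylated Hsp40, was 49.1, 66.3 and 44.1 and 42.8, 64.9, 83.5 and 60.1 with amyloid beta. With the reverse peptide Dnaja1 was 65.9, 77.3 and 64.4 and 54.9, 99.4, 53.5 and 69.6. Its difference between peptides with anti-Hsf1, -0.39 (-0.94 to 0.16), was the largest of the 9 in that comparison and did not pass. Hspb1, an ATP-independent holdase, was 0.788, 1.47 and 0.640 and 0.500, 0, 0.865 and 1.09 with amyloid beta, and 0.386, 0 and 0.661 and 1.11, 0, 0 and 1.51 with the reverse peptide, levels too low for a comparison.

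Using TPM as deposited changed the HT-22 counts. In the libraries labelled anti-Hsf1, 5 of the members were then called between amyloid beta and reverse peptide, all lower, where 24.3% of all genes tested were called and the median over all genes was -0.52. Between anti-Hsf1 and scramble LNA with amyloid beta 7 were called, all lower, beside 50.7% of genes and a median of -0.62. For the interaction 4 were called, all lower, beside 25.3% of genes and a median of -0.68. These shifts go with the lower protein-coding share of the amyloid beta, anti-Hsf1 libraries given above, whose part in the counts was not tested.

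Much of the spread within the scramble groups was in 3 libraries: replicates 3 and 4 with amyloid beta and replicate 4 with the reverse peptide. They were picked out after their values were seen, by 12 immediate-early genes, which respond within minutes to growth factors or stress and whose summed level was 1427 to 1667 scaled TPM in the 3 libraries and 129 to 204 in the other 11. Dnajb1 was 68.8 to 80.4 in the 3 and 38.7 to 47.5 in the 11. Hspa4 was 151 to 166 against 108 to 129.9, Hsp90ab1 1197 to 1311 against 897 to 1089, and Hspa8 856 to 912 against 709 to 831. Hspa1a went the other way by a narrow gap, 4.20 to 7.01 against 7.16 to 13.2, and the other members overlapped. Among these was its near-identical copy Hspa1b, at 12.1 to 23.1 against 21.7 to 32.7. Because the split of reads between the copies is uncertain, Hspa1a alone is not a safe value here. The sum of the copies over Hspa8 was 1.81, 2.66 and 3.52% in the 3 libraries and at least 3.75% in the other 11. Hspa8 was itself higher in the 3. Hsph1 overlapped narrowly, at 82.0 to 86.8 against 86.2 to 112. The stress-inducible genes were thus not together: Dnajb1 was high in these libraries, and the ranges of Hsph1, Hspa1b and Hsp90aa1 overlapped. All 8 subunits of the CCT chaperonin were above too. The share of all genes that set these libraries apart in the same way was not counted, so this is not shown to be particular to chaperones. The 3 libraries also had the highest protein-coding shares of TPM among HT-22 libraries (55.7, 58.0 and 61.8%, against at most 54.3%) and the lowest shares of mitochondrial ribosomal RNA (6.72, 8.47 and 10.4%, against at least 10.8%). The labels give no batch that sets these libraries apart, and the part of these differences in the members' levels was not tested. Without them, 0 members were called in each of the 4 HT-22 comparisons that use scramble libraries, and the Dnajb1 difference between peptides with scramble LNA was -0.16 in place of 0.13, neither passing the test.

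**Figure D2:**
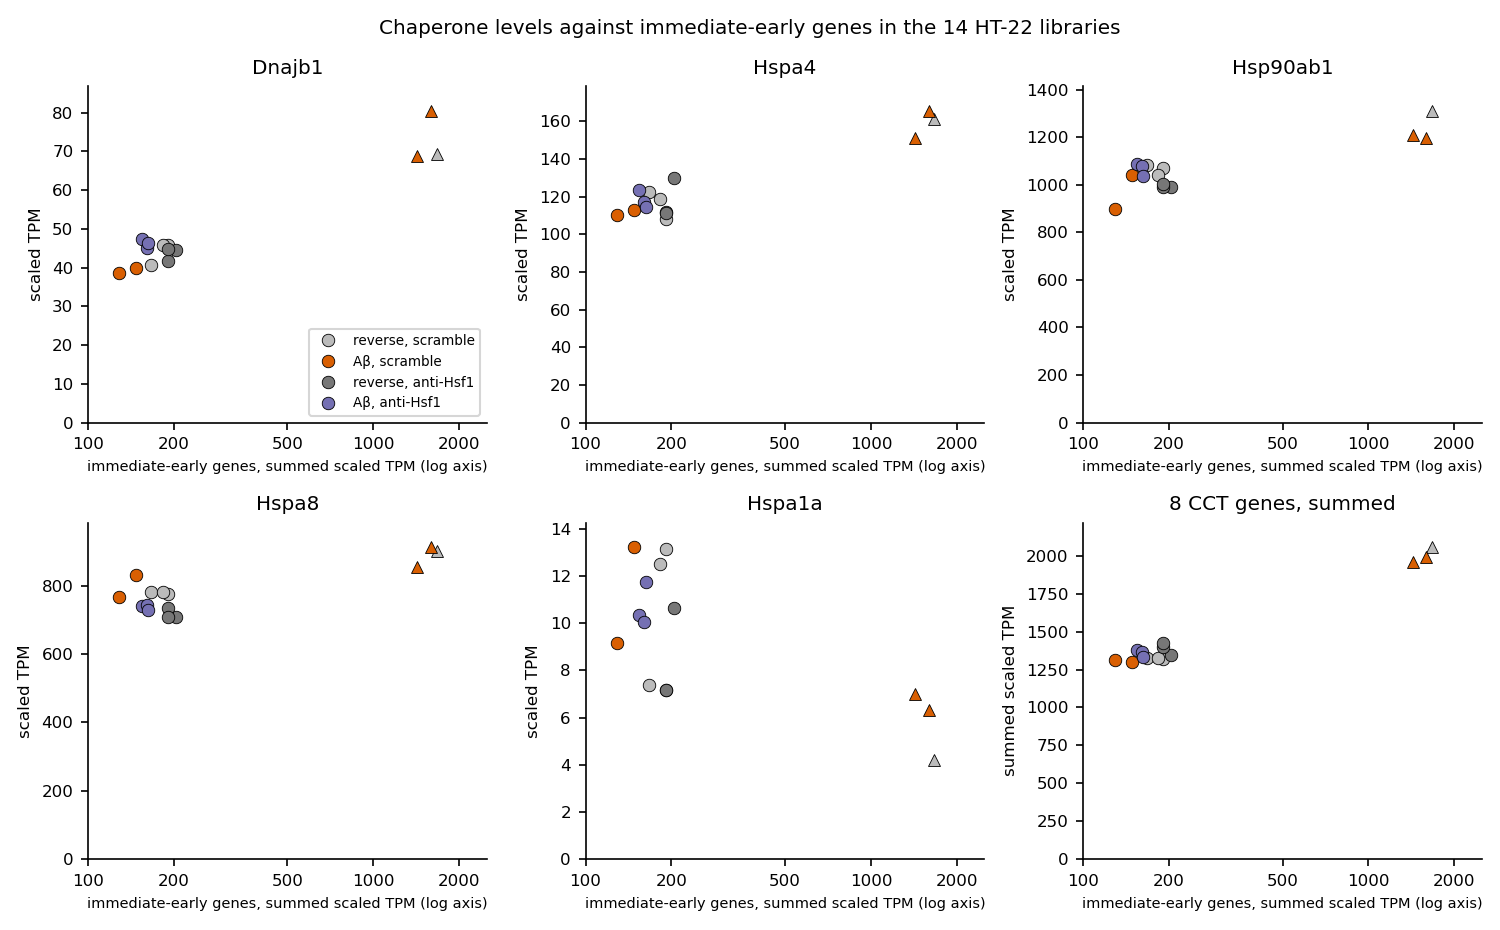
Scaled TPM of 5 members, and the sum of 8 CCT subunits, against the summed scaled TPM of 12 immediate-early genes (log axis), 1 point per HT-22 library, colours for groups and triangles for the 3 libraries named above. The 3 libraries at 1427 to 1667 hold the highest Dnajb1 values (68.8 to 80.4) and the lowest Hspa1a values (4.20 to 7.01). The split of reads between Hspa1a and Hspa1b is uncertain, and Hspa1b overlapped with the other libraries.

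In the hippocampus 1 member passed a test: Dnajb1 fell between 3 and 12 months in APP mice. Its scaled TPM was 18.6, 22.2 and 20.3 at 3 months (mean 20.4 ± 1.77 SD, n = 3), 14.1, 13.7 and 13.3 at 6 months and 13.3, 11.2 and 11.4 at 12 months (12.0 ± 1.17 SD, n = 3). Every APP mouse at 3 months was above every other mouse of either genotype. The log2 change was -0.72 (SE 0.10, 95% interval -0.93 to -0.52; limma, adjusted p = 0.0018), and it was called in all 14 alternatives run for it, with changes between -0.66 and -0.80. In this comparison 3.27% of the 17767 genes tested were called (338 higher, 243 lower), and 1 of the 10 members. In WT mice Dnajb1 was 15.9 and 15.8 at 3 months, 12.9, 13.1 and 13.5 at 6 months and 11.3, 13.4 and 12.0 at 12 months. The 12-month WT mice were also below the 3-month ones, by -0.35 (-0.58 to -0.11), which did not pass (adjusted p = 0.401). The difference between the APP and WT changes, -0.38 (-0.69 to -0.07), did not pass either (unadjusted p = 0.0205, adjusted p = 0.383), so the fall is not shown to be particular to APP. The 6-month levels lay near those at 12 months, and 6 against 3 months was not tested.

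Other gene groups moved in the same APP comparison. Of 11 immediate-early genes tested, Fos (-1.59) and Egr2 (-1.37) fell and Jun (0.65) rose. The summed level of the list of 12 was 119, 379.5 and 371 scaled TPM in the 3 APP mice at 3 months and 128, 125 and 133 at 12 months. Dnajb1 in these 3 mice of 3 months, named in the same order, was 18.6, 22.2 and 20.3. Of 8 oligodendrocyte markers 5 fell, among them Mbp (-0.89), Mog (-0.93), Mobp (-0.70) and Cnp (-0.64), with a summed level of 1611 to 2689.7 at 3 months and 1172 to 1302 at 12 months. Of 8 microglia markers 5 rose (C1qa 2.13, Tyrobp 2.40, Trem2 2.01, Csf1r 0.91, Aif1 1.14), from a summed 79.6 to 89.1 at 3 months to 214 to 287 at 12 months. Of 7 astrocyte markers 1 rose, Gfap (2.44), and the summed level was 972 to 1110.2 at 3 months and 1573 to 1748 at 12 months. Of 8 neuron markers 0 were called, with a summed level of 1639.7 to 2275 at 3 months and 1885 to 1986 at 12 months. The part of these shifts in the Dnajb1 result was not tested.

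**Figure D3:**
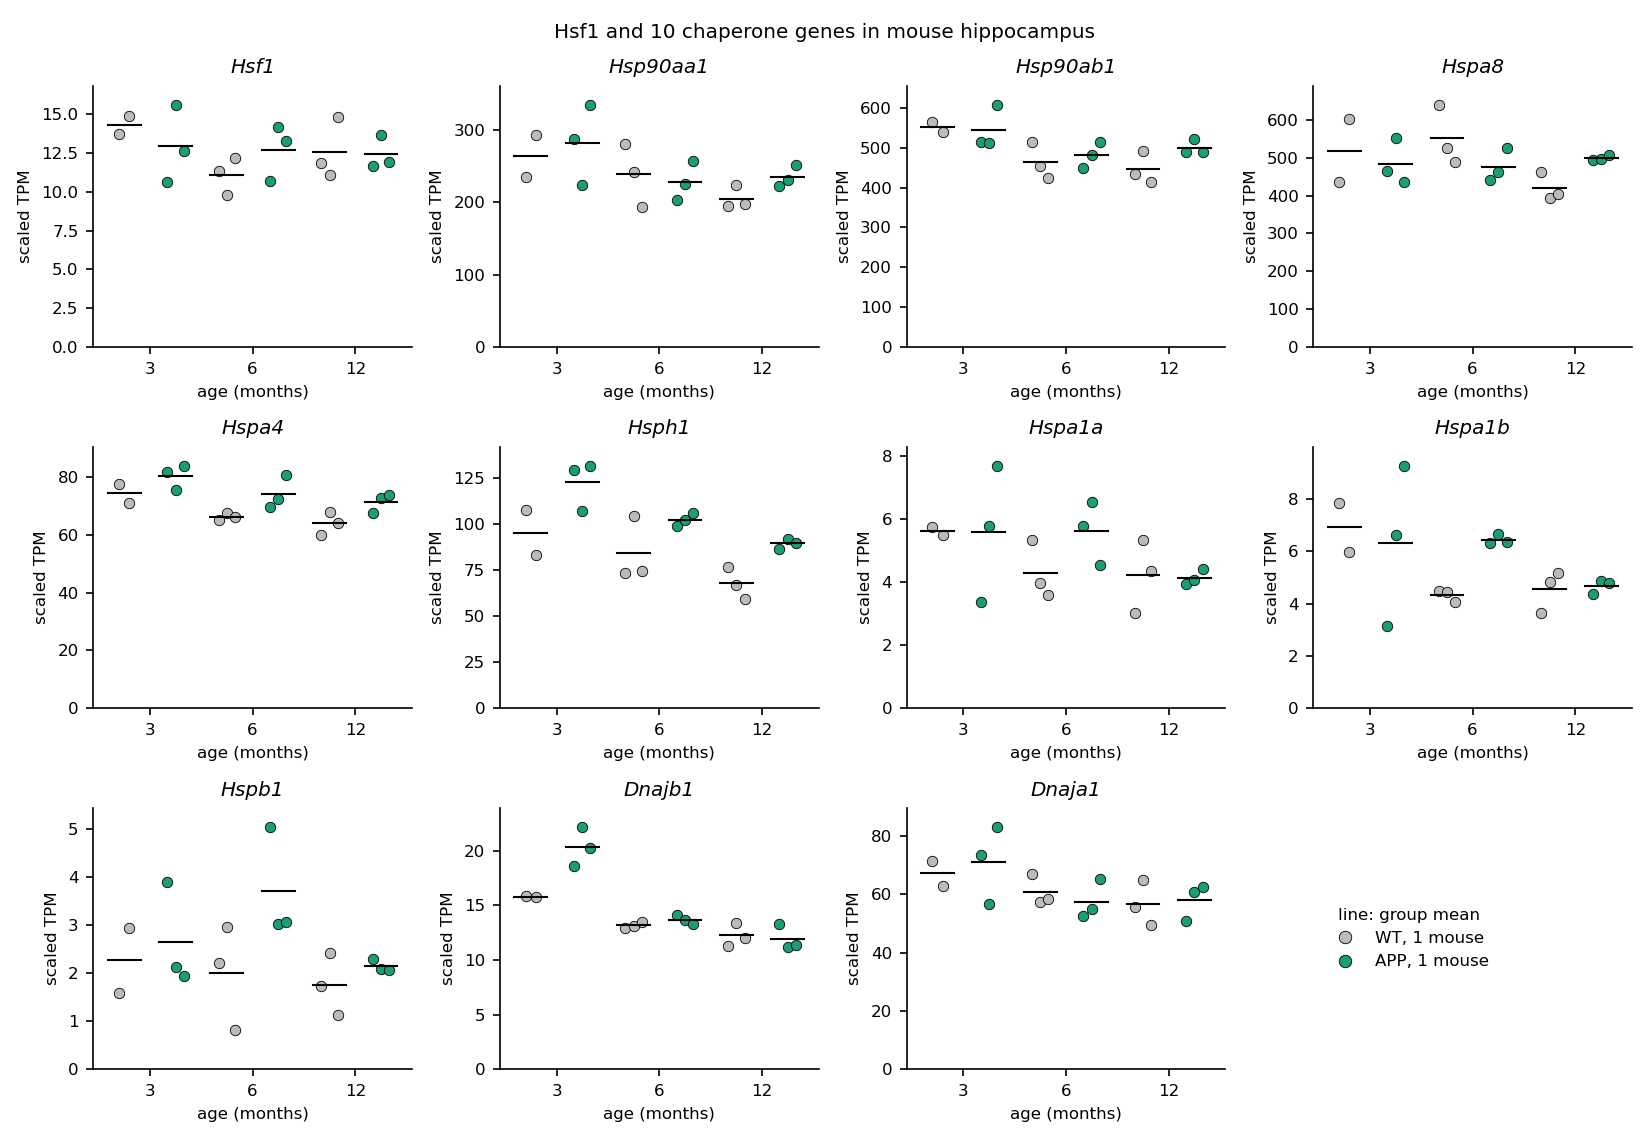
Scaled TPM of the 10 members in the 17 mouse libraries by age and genotype, a panel per gene, with points for mice and lines at group means. The 3 APP mice at 3 months hold the highest Dnajb1 values (18.6 to 22.2).

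No other member passed with age. All 10 members had estimates below 0 from 3 to 12 months in WT mice (median -0.33, against 0.00 over all genes), and 9 of 10 in APP mice (median -0.26, against 0.01). In the same WT comparison all 8 oligodendrocyte markers had estimates below 0 (median -0.46, 0 called; summed level 1504 to 1579 at 3 and 1035 to 1079 at 12 months). All 8 choroid plexus markers did too (median -0.71, 0 called; 1018 to 1504 and 429 to 1323). All 5 blood genes had estimates above 0 (median 1.11, 1 called; 73.7 to 88.2 and 139 to 223). Their part in the members' estimates was not tested. In WT 0.0619% of genes were called and 0 members, with unadjusted p below 0.05 for Hsp90ab1, Hspa4, Hsph1 and Dnajb1. Of all genes tested in that comparison, 8.29% had an unadjusted p below 0.05. Hsph1, the inducible nucleotide exchange factor of Hsp70, was 107 and 83.0 scaled TPM at 3 months in WT, 73.3, 104 and 74.2 at 6 months and 76.6, 66.9 and 59.1 at 12 months. In APP mice it was 129, 107 and 131, then 98.8, 102 and 106, then 86.5, 91.5 and 89.7. Both genotypes were lower at 12 than at 3 months with no overlap, by -0.48 (95% interval -0.83 to -0.14; adjusted p = 0.448) in WT and -0.45 (-0.75 to -0.14; adjusted p = 0.116) in APP, and neither passed. WT at 3 months has 2 mice, and these differ from the older WT mice in the Y-linked genes as well. For the genotype by age interaction 0.0732% of genes and 0 members were called. Only Dnajb1 among the 10 members had an unadjusted p below 0.05 there, beside 10.1% of all genes.

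Between APP and WT mice 0 of 10 members were called at any age. The share of all genes called was 0.304% at 3 months, 1.71% at 6 months and 0.433% at 12 months. The members' median log2 difference was 0.07, 0.11 and 0.16, against 0.00, 0.00 and 0.00 over all genes. Marker lists of other cells also had medians away from 0 in these comparisons, and their part in the members' values was not tested. At 3 months 5 of 5 blood genes (median 1.13, 1 called; summed level 149 to 225 in APP and 73.7 to 88.2 in WT) and 8 of 8 oligodendrocyte markers (0.47, 0 called; 1611 to 2689.7 and 1504 to 1579) had estimates above 0. At 6 months 8 of 8 choroid plexus markers (-1.01, 0 called; 40.3 to 921 and 1152 to 1374) and 5 of 5 blood genes (-0.62, 1 called; 90.7 to 137 and 175 to 227) had estimates below 0. At 12 months 8 of 8 choroid plexus markers (1.00, 0 called; 1459 to 1686 and 429 to 1323) and 7 of 8 microglia markers (1.01, 3 called; 214 to 287 and 98.1 to 112) had estimates above 0. Hsph1 had the higher estimate in APP at each age, by 0.37 (95% interval 0.02 to 0.71; adjusted p = 0.335), 0.30 (-0.01 to 0.61; adjusted p = 0.307) and 0.40 (0.10 to 0.71; adjusted p = 0.471), with no overlap at 12 months. Dnajb1 was higher in the APP mice at 3 months with no overlap (0.34, 0.11 to 0.57; adjusted p = 0.176), and its estimates were 0.05 at 6 and -0.03 at 12 months. None of these passed the test, and the share of all genes whose groups did not overlap was not counted.

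**Figure D4:**
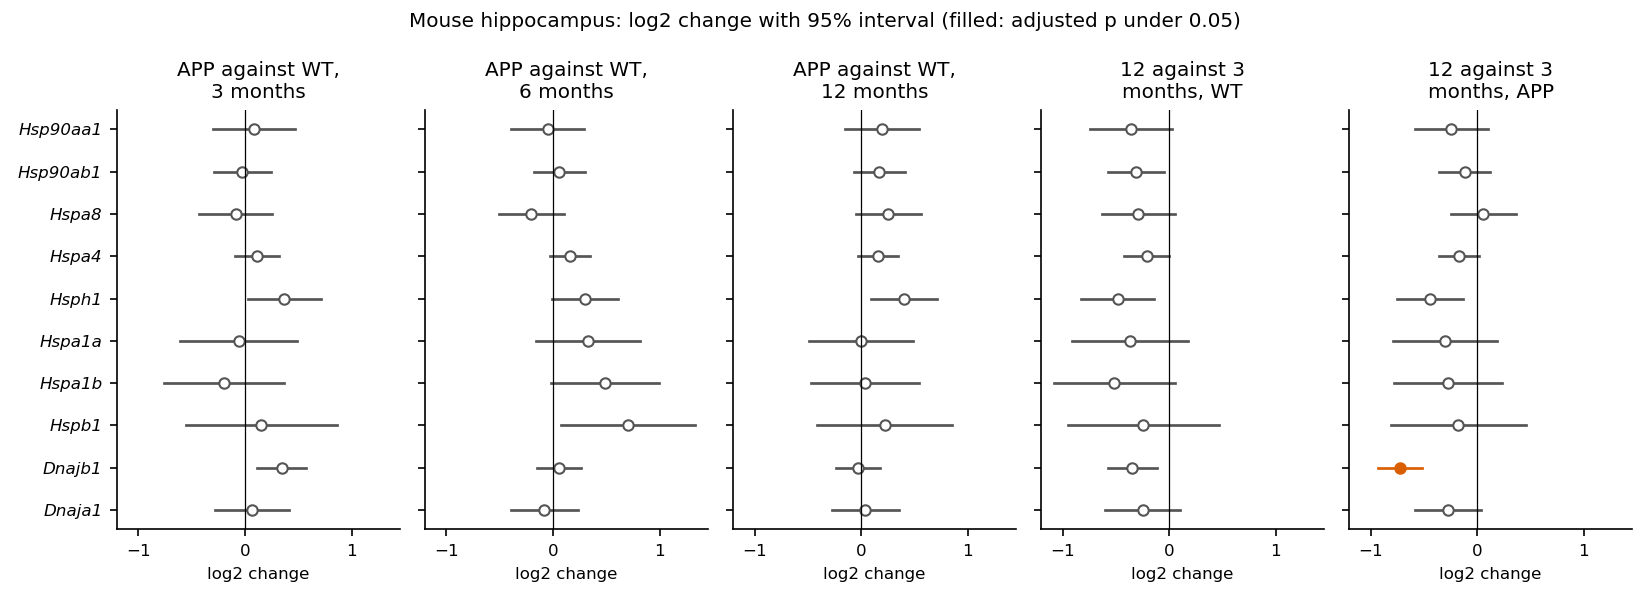
Log2 differences of the 10 members on log2(scaled TPM + 1) with 95% intervals in mouse. Panels show APP against WT at each age and 12 against 3 months in each genotype. The genotype by age interaction is not drawn. The interval of Dnajb1 from 3 to 12 months in APP (-0.93 to -0.52) is the one that belongs to a call after adjustment.

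The remaining mouse values are given by family. Hsp90aa1 was 288, 224 and 334 scaled TPM in APP mice at 3 months, 203, 225 and 257 at 6 and 223, 230.2 and 252 at 12. WT mice had 235 and 293, then 281, 241 and 193, then 195, 223 and 197. APP and WT overlapped at each age. Hsp90ab1 was 515, 513 and 606 in APP at 3 months, 449, 481 and 515 at 6 and 489, 522 and 489 at 12. In WT it was 565 and 540.3, 514, 453 and 423 and 433, 491 and 413, lower at 12 than at 3 months by -0.31 (95% interval -0.58 to -0.05; adjusted p = 0.530). The WT mice of 12 months lay below those of 3 months for both Hsp90 genes.

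Hspa8 was 465, 552 and 435 in APP at 3 months, 442, 461 and 525 at 6 and 495, 496 and 508 at 12, and was the member with an estimate above 0 with age in APP (0.05, -0.25 to 0.36). The WT mice had 436 and 602, 638, 526 and 489 and 463, 394 and 404. At 12 months the APP mice lay above the WT mice, by 0.25 (-0.05 to 0.56; adjusted p = 0.821). Hspa4 was 82.0, 75.7 and 83.8 in APP at 3 months, 69.6, 72.6 and 80.8 at 6 and 67.7, 73.0 and 73.8 at 12. Its WT values were 77.7 and 71.1, 65.1, 67.5 and 66.4 and 60.1, 68.0 and 64.3. Its groups did not overlap between 3 and 12 months in either genotype, nor between genotypes at 6 months, where APP was higher, and the estimates were small, from -0.21 to 0.16.

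The inducible Hsp70 genes were low in the hippocampus. Hspa1a was 3.35, 5.77 and 7.66 in APP at 3 months, 5.78, 6.53 and 4.53 at 6 and 3.93, 4.08 and 4.41 at 12. In WT it was 5.74 and 5.50, 5.33, 3.96 and 3.57 and 3.01, 5.33 and 4.33. The 3 APP mice of 3 months spanned the whole range of the mouse libraries for this gene but for the lowest WT mouse of 12 months. Hspa1b was 3.14, 6.61 and 9.25 in APP at 3 months, 6.30, 6.67 and 6.36 at 6 and 4.36, 4.85 and 4.77 at 12. In WT it was 7.87 and 5.98, 4.46, 4.44 and 4.08 and 3.64, 4.84 and 5.15. At 6 months APP lay above WT for Hspa1b, by 0.48 (-0.02 to 0.99; adjusted p = 0.321). The split between the copies does not bear on their sum, which is used in the ratios.

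Hspb1 was 3.90, 2.13 and 1.94 in APP at 3 months, 5.04, 3.03 and 3.06 at 6 and 2.29, 2.1 and 2.07 at 12. Hspb1 in WT was 1.59 and 2.94, 2.21, 2.97 and 0.815 and 1.72, 2.42 and 1.12. At 6 months APP lay above WT, by 0.70 (0.07 to 1.33; adjusted p = 0.241). Dnaja1 was 73.5, 56.7 and 83.0 in APP at 3 months, 52.4, 55.0 and 65.2 at 6 and 50.8, 60.8 and 62.4 at 12. In WT it was 71.4 and 62.9, 66.9, 57.3 and 58.3 and 55.6, 64.8 and 49.4. It overlapped between all groups compared, and its estimates ran from -0.28 to 0.07. Hsf1 itself was 10.6, 15.6 and 12.7 in APP at 3 months, 10.7, 14.2 and 13.3 at 6 and 11.7, 13.7 and 11.9 at 12, with no call between genotypes or ages. In WT Hsf1 was 13.7 and 14.9, 11.3, 9.79 and 12.2 and 11.8, 11.1 and 14.9. With TPM as deposited all 10 members were called higher in APP at 6 months, beside 58% of all genes (10267 higher, 72 lower) and a median over all genes of 0.60, and the protein-coding share of TPM was lower in WT at that age.

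Ratios within a library do not depend on the scaling. Hspa1a plus Hspa1b, the inducible Hsp70, had a median of 4.61% of Hspa8 in HT-22 (1.81 to 6.10%) and 1.91% in hippocampus (1.40 to 3.89%), ranges that overlap. Hsp90aa1 had a median of 26.4% of Hsp90ab1 in HT-22 (19.5 to 34.4%) and 46.7% in hippocampus (41.5 to 55.8%), ranges that do not overlap. Dnajb1 had a median of 83.0% of Dnaja1 in HT-22 (40.9 to 134%) and 23.2% in hippocampus (18.2 to 39.1%). The systems were not tested against each other. Each ratio was compared between peptides, LNAs, genotypes and ages, 12 comparisons in all, by 2-sided exact permutation tests within the other factor. None reached p below 0.05. The lowest was Dnajb1 over Dnaja1 at 12 against 3 months in mice of both genotypes, with a mean log2 difference of -0.30 (exact permutation p = 0.08, adjusted p = 0.542). The design allows 200 arrangements of the labels there. Between anti-Hsf1 and scramble LNA the inducible Hsp70 ratio differed by 0.39 (exact permutation p = 0.136, adjusted p = 0.542). Hsp90aa1 over Hsp90ab1 differed between amyloid beta and reverse peptide by -0.14 (exact permutation p = 0.237, adjusted p = 0.660). Each HT-22 library was also left out in turn. Without replicate 4 of the reverse peptide with scramble LNA that difference was -0.21, at an unadjusted exact permutation p of 0.0114. This was the only such run with p below 0.05, and it is named here after the values were seen. Without any other single library the exact permutation p was 0.151 to 0.394.

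**Figure D5:**
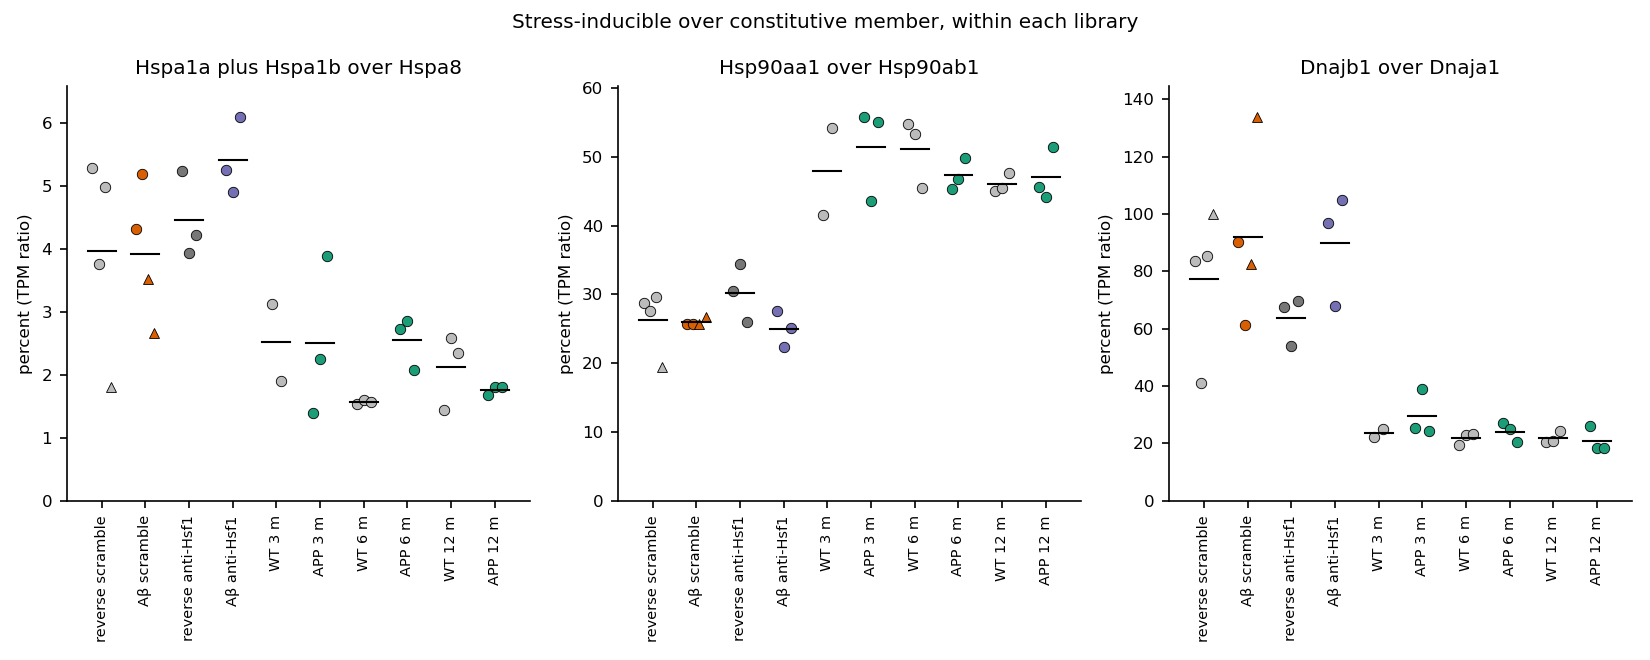
The 3 ratios in percent in each library, HT-22 groups and mouse groups side by side. Hsp90aa1 over Hsp90ab1 lies between 19.5 and 34.4% in HT-22 and between 41.5 and 55.8% in mouse libraries.

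The other chaperone genes were described from 5 further lists of 38 genes: 3 heat shock factors, 6 other Hsp70 and Hsp110 genes, 7 other Hsp40 genes, 14 co-chaperones of Hsp70 and Hsp90, and 8 CCT subunits. In the HT-22 comparisons 37 were tested and 0 called in each of the 5. The largest estimates were those of Ptges3, the Hsp90 co-chaperone p23, with -0.78 for amyloid beta against reverse peptide with scramble LNA and -1.84 with anti-Hsf1, -1.05 for anti-Hsf1 against scramble with amyloid beta and -1.06 for the interaction. Ptges3 ranged from 1.85 to 166 scaled TPM among HT-22 libraries and from 0.421 to 52.0 among mouse libraries. After it came Hspa1l (0.70, 0.68 and -0.95 for the peptide with scramble LNA, the LNA with reverse peptide and the interaction), Cdc37 (0.51 for the peptide with anti-Hsf1 and -0.49 for the LNA with reverse peptide) and Bag2 (-0.46 for the LNA with amyloid beta). Cdc37 delivers kinases to Hsp90, and Bag2 is a nucleotide exchange factor of Hsp70.

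In mice 38 were tested. From 3 to 12 months in APP, 2 rose and 1 fell, where 3.27% of all 17767 genes tested were called (338 higher, 243 lower). Fkbp4, an immunophilin that binds Hsp90 in steroid receptor complexes, fell from a mean of 57.3 to 41.0 scaled TPM (-0.47, adjusted p = 0.0221). Fkbp5, which competes with it in those complexes and is induced by glucocorticoids, rose from 10.1 to 16.8 (0.70, adjusted p = 0.0307). Hspa2, an Hsp70 best known from the testis, rose from 20.9 to 29.0 (0.46, adjusted p = 0.0385). The other 5 mouse comparisons had 0 calls among the 38. The largest estimates there were Ptges3 (-1.08 at 3, -1.56 at 6 and -0.86 at 12 months, APP against WT), Fkbp5 (-0.79 at 3 and 0.60 at 6 months) and Cct6a (0.38 at 12 months). For age in WT they were Dnajb5 (-1.0) and Hspa1l (-0.54), and for the interaction Fkbp5 (0.95) and Hspa2 (0.74). All 8 CCT subunits had estimates above 0 in APP against WT at 3 months (median 0.23), none of which passed.

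The members differed in how much they varied. In HT-22 the SD of log2 values over all libraries ran from 0.12 for Hspa8 to 0.43 for Hspa1a, and in mouse from 0.13 for Hspa4 to 0.42 for Hspb1. For the members that varied most in each system, the genes with the most similar pattern were found as those with the smallest root mean square difference of centred log2 values. Over the 14 HT-22 libraries they were Hspa1b (0.17), Mib2 and Klhl36 for Hspa1a, and Mrto4-ps1 (0.13), Zfp36l1 and Sephs1 for Dnaja1. Over the 17 mouse libraries they were Plpp4 (0.21), Frmpd1 and Ptpdc1 for Hspb1, Tet3 (0.15), Hspa1a (0.16) and Sbk1 for Hspa1b, and Pld1 (0.15), Hsp90b1 (0.15) and Fv1 for Hsph1. Reads that fit both Hspa1a and Hspa1b could be assigned to either, so the likeness of these copies is not an independent value. The libraries share groups and depth, so these are descriptions with no test.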

How the data were processed

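The 31 long-RNA libraries of 62 were used, 14 from HT-22 cells and 17 from mice; the 31 short-RNA libraries were not analysed here. Libraries were ribosomal-RNA depleted, per the labels' protocols. The deposited gene tables give TPM, FPKM and coverage for each gene, per the file headers. The submitters' processing notes name cutadapt 1.18, BWA 0.7.17, HISAT2 2.1.0, bedtools 2.26.0, StringTie 1.3.4d, FastQC and the builds mm10 and GRCm38, with no role for each. Deposited TPM have nearly the same sum in each library (999823 to 999917), so they depend on what else was sequenced. Deposited FPKM and coverage signal were used only for relative depth, which carries no read count.

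TPM were summed per gene identifier and divided by a median of ratios size factor (0.639 to 1.23 in HT-22, 0.688 to 1.46 in mouse). Of 53975 identifiers, 53934 were in GENCODE M21. Genes with a mean scaled TPM of at least 1 were tested by limma 3.58.1 (R 4.3.3, trend and robust) on log2(scaled TPM + 1), in 1 fit per system, with Benjamini-Hochberg adjustment over all genes and calls at adjusted p below 0.05. A fold on this scale understates changes of low genes. Overlap of ranges between groups was described for the members and Hsf1 only. The share of all genes without overlap was not counted, so a lack of overlap in these small groups is a description and not a test. Ratios used a pseudocount of 0.1 and exact permutation tests (Python 3.11.15, scipy 1.17.1), adjusted over 12. The scripts were tested on simulated data. Named genes are all members, list genes called or the 2 largest per comparison, and the 3 likest genes of the 3 most variable members. The likest genes of Hspa1b in HT-22 and 1 oligodendrocyte marker are not reported here. The members and lists were chosen with earlier results of these data known. Alternatives were other scalings, pseudocounts, filters, fits and left-out libraries. The labels call the HT-22 replicates biological without naming separate cultures, so p-values there measure only the spread between libraries, which may be technical.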

Additional observations from a re-analysis of the deposited data

Results flagged for a closer look

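In the scramble LNA groups, each of 4 libraries, 1 library far from the other 3 was sought for each gene and ratio. The measure was the gap to its neighbour over the group's range (Dixon's criterion). Of the 28 sets of 4 values checked, 4 were flagged. Chance flags about 1 in 20, or 1.4 here, if the sets are independent. They reuse the same libraries and are not independent, so the 4 flags cannot be weighed against 1.4. Replicate 4 of the reverse peptide with scramble LNA had Hsp90ab1 at 1311 scaled TPM, above 1039 to 1082 in the other 3. The same library had Hspa8 at 901, above 775 to 781. Its log2 ratio of Hsp90aa1 over Hsp90ab1 was -2.36, below -1.86 to -1.76 in the rest of its group. In the amyloid beta, scramble LNA group replicate 4 had a log2 ratio of -1.90, above about -1.96 in the other 3. Both libraries are among the 3 with high immediate-early genes. The cause was not tested.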

How the results depend on the processing

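The call of Dnajb1 from 3 to 12 months in APP mice held under other scalings, pseudocounts, filters and fits and without each of its 6 libraries in turn (adjusted p from 0.000873 to 0.0492). With TPM as deposited, members called became 5 for the peptide with anti-Hsf1 LNA, 7 for the LNA with amyloid beta, 4 for the interaction and 10 for APP against WT at 6 months, with the median of all genes shifted as the report gives. Changes that turned sign there with a call were Hspa8 (-0.55) and Hspa4 (-0.58) for the peptide with anti-Hsf1, Hsph1 for the LNA with amyloid beta (-0.65) and for the interaction (-0.70), and Hsp90aa1 (0.66), Hspa8 (0.51) and Dnaja1 (0.62) for APP against WT at 6 months. Hsp90aa1 over Hsp90ab1 between peptides ran from -0.206 to -0.0884 with each library left out. It was -0.213 (exact permutation p = 0.02, unadjusted) without the 3 libraries high in immediate-early genes, an alternative chosen after seeing the data. Of 1795 member and Hsf1 values under alternatives, those that crossed 0 without a call were 19 of 116 with TPM as deposited, 11 of 116 with quantile normalisation, 10 of 116 with array weights, 7 of 116 with a replicate block, 97 of 849 with 1 library left out and 16 of 40 without those 3 libraries, and 0 with other pseudocounts, filters or only the groups compared. Replicate numbers were not shown to pair libraries: 3 of 19 same-number HT-22 pairs and 3 of 40 mouse pairs had correlations over 0.1. Among pairs with different numbers these were 6 of 54 and 8 of 80. The highest same-number value, 0.575, was between the replicate 4 scramble libraries, both among the 3 high in immediate-early genes. With a replicate block, 1 member was called from 3 to 12 months in APP (509 genes in all) and 0 elsewhere. The depth is unknown, and groups of 2 to 4 libraries leave wide intervals.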
